A study of Saccharomyces pastorianus with 12 samples.

Results

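The comparison described here sets the lager yeast SpIB2 against the lager yeast SpIB1 on fermentation day 2, and its members are the 6 day 2 libraries among the 12 RNA-seq libraries of the series: 3 of SpIB2 and 3 of SpIB1, chosen by their labels and not by any measured value. Both are strains of Saccharomyces pastorianus, the hybrid species behind lager beer, grown in standard brewing wort at 16 °C in a fermentation of 5 days. No allele, added agent or other treatment is named for either strain. RNA was extracted with hot phenol, and polyA RNA of an integrity number above 8 was sequenced. The other 6 libraries, taken from the same strains on day 5, entered the fit only to help estimate the spread, and they return in the last comparison below. Whether the 3 replicates of a strain were separate fermentations is not stated in the labels, so a p-value here measures only the spread among these samples, part of which may be technical.

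Wort holds mostly maltose, with maltotriose and some glucose. Saccharomyces yeasts carry maltose and maltotriose across the plasma membrane with proton symporters, split them to glucose with maltase inside the cell, and switch these genes on with MAL activators once maltose is present and glucose is low. MAL31-type permeases carry maltose, whereas MAL11 (also called AGT1) carries a broad range of alpha-glucosides that includes maltotriose. The glucose then passes through glycolysis to ethanol, while iron, zinc, and the sterols and unsaturated fatty acids that need oxygen to be made bear on how well the cells grow. The question stated for the series is which genes lie behind the strains' unequal maltose and maltotriose consumption.

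Each count table lists 11312 gene copies, mostly a symbol with a copy number behind it, since the hybrid carries genes of both parent species. The files do not say which copy belongs to which parent, and reads of near-identical copies can be split between them in ways that the sources used here do not describe. The day 2 libraries held 5358719 to 6764351 reads over readable copies, so 3 reads correspond to 0.425 to 0.541 CPM (read counts brought to a common library size with TMM factors) in a single library, a floor that covers counting error only. Of 3938 symbols with 2 readable copies, both copies had more than 3 reads over the strain's libraries for 3925 symbols in SpIB2 and 3742 in SpIB1. SpIB2 replicate 3 stood apart from its replicates (Pearson r of log2 CPM 0.896 and 0.906 across copies, against 0.951 between replicates 1 and 2), while the SpIB1 replicates correlated at 0.978 to 0.988. Results that rest on SpIB2 replicate 3 are therefore given with and without it.

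On day 2, 2055 of 10659 tested copies were higher in SpIB2 and 1707 were lower (edgeR quasi-likelihood test, Benjamini-Hochberg adjusted p under 0.05), which is 19.3% and 16% of the copies tested. These shares are the background for each list below. Libraries that do not overlap between the strains are a weaker mark, since 26.8% of tested copies had all SpIB2 libraries above all SpIB1 libraries and 25.8% had them all below. The median fold among called copies was 2.49 where SpIB2 was higher and 2.34 where it was lower. The higher calls include copies with 0 reads in SpIB1, which also count among the members of several lists. Read in SpIB2 alone were 293 copies, 190 of them at 10 CPM or more. Read in SpIB1 alone were 99 copies, none above 1.21 CPM. Counts and median folds were not computed without such copies, so the 2 directions are not set on equal terms. Of the called copies, 1129 and 951 were called in each of the 6 fits that leave out 1 day 2 library. Without SpIB1 replicate 1 there were 1257 higher and 1077 lower copies of 10694 tested. Without SpIB2 replicate 1, 2 or 3 there were 1427, 1958 and 2145 higher and 1157, 1476 and 1726 lower. Without SpIB1 replicate 2 or 3 there were 1451 and 1524 higher and 1216 and 1438 lower. Leaving out SpIB2 replicate 3 together with SpIB2 day 5 replicate 1 gave 2836 higher and 2493 lower of 10689. The background moves with these totals, so a list count from such a fit is to be read against them. All values are shares of polyA RNA in bulk samples, in which fewer cells in a given state and less RNA per cell cannot be told apart. Copies with a symbol and copies with only a locus tag were called at similar shares (19.2% and 15.9% of 9187 symbol copies, 19.7% and 16.5% of 1472 tag copies).

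Over all tested copies of 2-copy symbols, 19.5% were called higher and 15.3% lower. At such shares, pairs with both copies called would be few even if copies varied independently. Whether the copies of a symbol agreed more or less than that was not tested. Among 3904 symbols with 2 tested copies, 201 had both copies higher in SpIB2, 116 had both lower and 167 had 1 copy higher and the other lower. The 167 include pairs in which 1 copy was unread or nearly unread in 1 strain. Where both copies had more than 3 reads in each strain, 93 of 3719 symbols had opposite calls. In 955 symbols only 1 copy was called, as higher, and in 796 only 1 was called, as lower, although a copy that missed the threshold is not shown to differ from its partner. With the counts of a symbol's copies summed, 647 of 4699 symbols (13.8%) were higher in SpIB2 and 571 (12.2%) were lower. Scaled by library totals without TMM, 349 symbols were higher and 575 were lower. Leaving out 1 library moved these counts by more than 1.5 times. The higher symbols numbered 273 without SpIB2 replicate 1, and 217, 305 and 358 without SpIB1 replicate 1, 2 or 3. The lower symbols numbered 307 without SpIB2 replicate 1, and 284 and 351 without SpIB1 replicate 1 or 2. Leaving out SpIB2 replicate 3 together with SpIB2 day 5 replicate 1, the 2 libraries that stand apart from their replicates, gave 1135 higher and 1041 lower symbols.

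**Figure D1:**
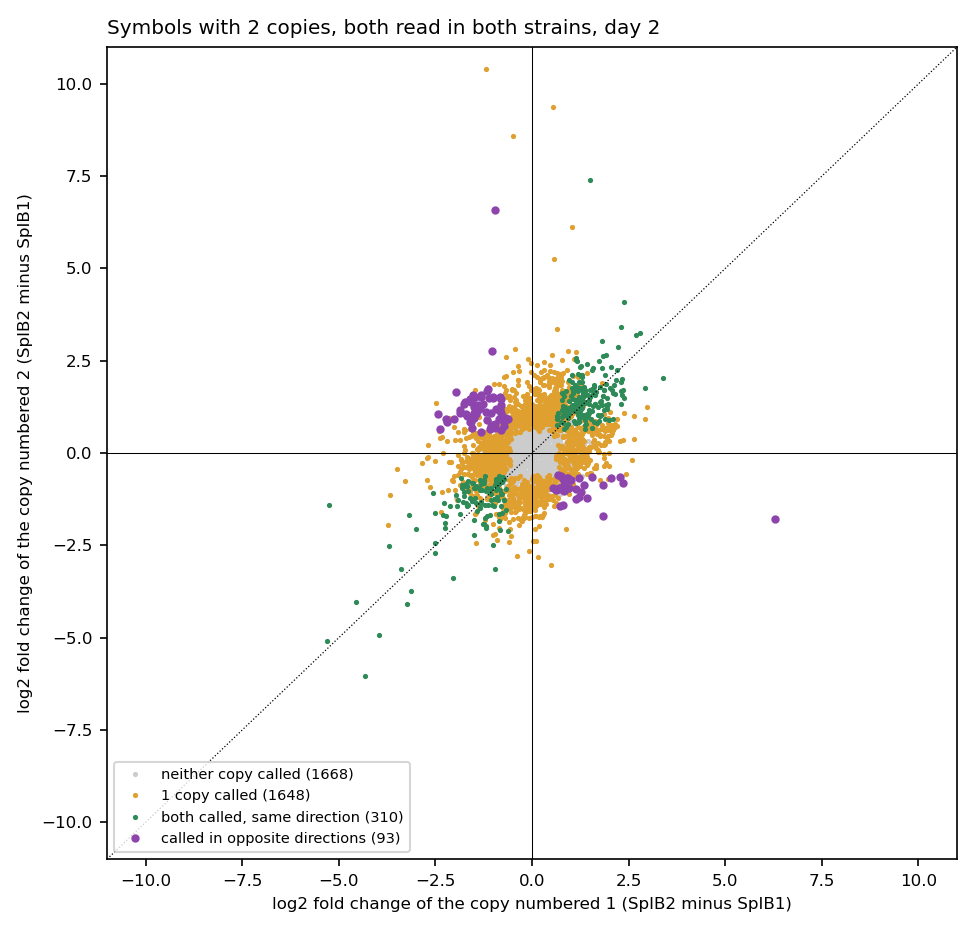
Log2 fold change (SpIB2 minus SpIB1, day 2) of the copy numbered 1 on the horizontal axis and of the copy numbered 2 on the vertical axis, 1 point for each of 3719 symbols whose 2 copies both had more than 3 reads in each strain. Colours mark whether edgeR called neither copy (1668 symbols), 1 copy (1648), both in the same direction (310) or both in opposite directions (93); the dotted diagonal marks equal change.

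Among the maltose transporters, SpIB2 had less of both main MAL11 copies and of the alpha-glucoside permease MPH3, and more of 1 abundant MAL31 copy. Values per library are CPM in the order of replicates 1, 2 and 3. MAL11_1 had 18.6, 17.5 and 26.9 CPM in SpIB2, against 67.5, 65.8 and 54.2 CPM in SpIB1. MAL11_2 had 15, 16.1 and 22 CPM in SpIB2, against 90.8, 84.8 and 59.3 CPM in SpIB1. For each of these 2 copies the lowest SpIB1 library lay above the highest SpIB2 library, and the log2 fold changes were -1.57 ± 0.24 and -2.14 ± 0.27 (SpIB2 minus SpIB1 ± SE, adjusted p = 0.000292 and 5.08e-05 by edgeR). MPH3 had 5.77, 7.85 and 4 CPM in SpIB2, against 15.3, 12.3 and 18.4 CPM in SpIB1. Its groups did not overlap either (log2 fold change -1.39 ± 0.28, adjusted p = 0.00229 by edgeR). Both main MAL11 copies were thus read in both strains, 2.97-fold and 4.42-fold lower in SpIB2, and reads of MAL11 and MPH3 may be shared. Whether either copy encodes a working maltotriose carrier was not tested.

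The MAL31 permease copies did not move as a group. MAL31_2 had 1201, 990.5 and 776 CPM in SpIB2, against 314, 436 and 544 CPM in SpIB1. All 3 SpIB2 libraries were above all SpIB1 libraries (log2 fold change 1.20 ± 0.36, adjusted p = 0.0185 by edgeR), but the call was lost without SpIB2 replicate 1 and without SpIB1 replicate 1 or 2 (adjusted p of 0.00105 to 0.571 over all alternatives). MAL31_1 had 1165, 1289.8 and 858 CPM in SpIB2, against 598, 774 and 927 CPM in SpIB1. For this copy the strains overlapped, since SpIB2 replicate 3 lay below SpIB1 replicate 3, and it was not called (log2 fold change 0.53 ± 0.37, adjusted p = 0.277 by edgeR). MAL31_6 averaged 13.2 ± 4.43 CPM in SpIB2 and 22.3 ± 5.95 CPM in SpIB1 (SD, n = 3 each), with overlapping libraries (log2 fold change -0.76 ± 0.28, adjusted p = 0.045 by edgeR), a call that was lost without SpIB2 replicate 1 or 3 and without SpIB1 replicate 2 or 3 (adjusted p of 0.0183 to 1 over all alternatives). MAL31_3, MAL31_5 and MAL31_7 were not called (log2 fold changes 0.53 ± 0.34, -0.81 ± 0.48 and -0.37 ± 0.31), nor was MAL31_4 (0.01 ± 0.31). MAL11_3 had 4.33, 3.49 and 14.9 CPM in SpIB2, against 2.51, 2.33 and 2.97 CPM in SpIB1. SpIB2 replicate 3 alone was high in this scarce copy, whose log2 fold change of 1.55 ± 0.56 (adjusted p = 0.0456 by edgeR) was 0.58 without that library and whose call was also lost without any 1 of the SpIB1 libraries (adjusted p of 0.0212 to 0.391 over all alternatives). Of the 11 transporter copies 2 were called higher and 4 lower (0 to 2 and 3 to 4 when 1 library was left out, with no higher copy without SpIB1 replicate 1 or 2), with a median log2 fold change of -0.373, against a median of 0.0446 over all copies tested. The median of the 11 copies was -0.567 without SpIB2 replicate 2, -0.0922 without SpIB2 replicate 3 and -0.159 without SpIB1 replicate 3.

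**Figure D2:**
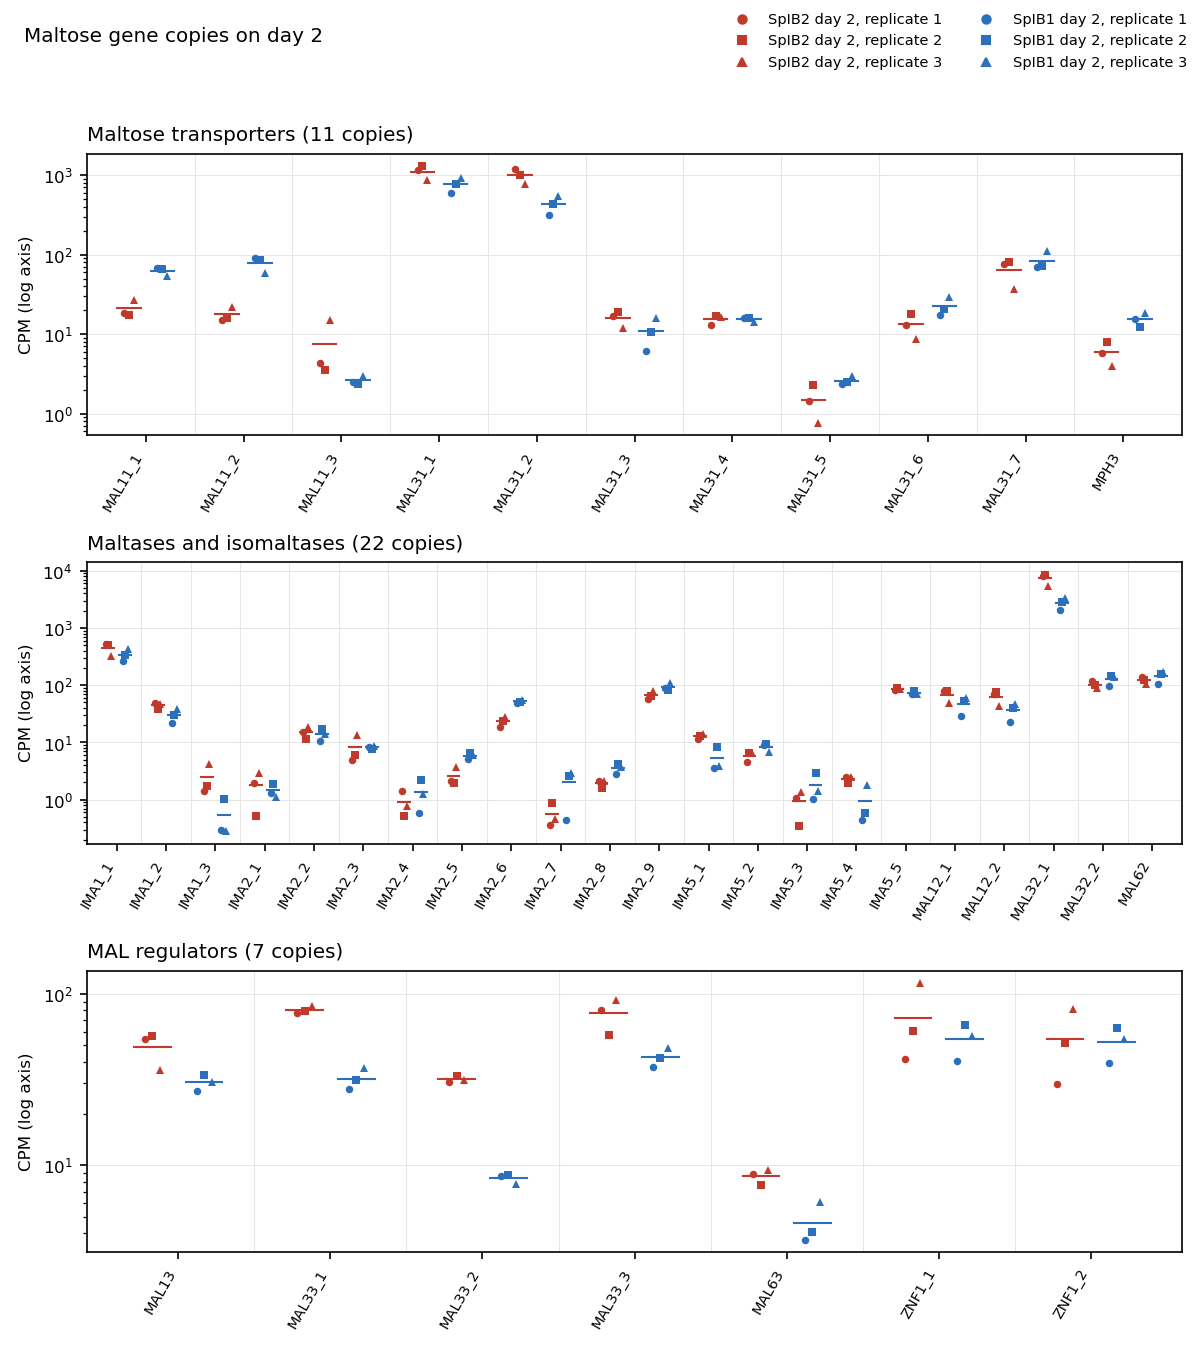
CPM on a log axis of the 40 copies of maltose transporters, maltases and isomaltases, and MAL regulators in each day 2 library, SpIB2 (red) left of SpIB1 (blue), with a bar at the mean of 3 libraries. MAL11_1, MAL11_2 and MPH3 are lower in every SpIB2 library, and MAL32_1, MAL33_1 and MAL33_2 are higher in every SpIB2 library.

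Maltase reads lay mostly on 1 copy, which was higher in SpIB2. MAL32_1 had 8081, 8481 and 5478 CPM in SpIB2, against 2055, 2833 and 3304 CPM in SpIB1. The groups did not overlap (log2 fold change 1.43 ± 0.37, adjusted p = 0.00922 by edgeR), although the call was lost without SpIB1 replicate 1 (adjusted p of 7.19e-06 to 0.298 over all alternatives). The maltase copies MAL12_1, MAL12_2, MAL32_2 and MAL62 were not called, with log2 fold changes of 0.53 ± 0.31, 0.76 ± 0.31, -0.32 ± 0.32 and -0.24 ± 0.32; MAL12_2 passed the test only without SpIB2 replicate 3. The isomaltases, which split isomaltose and related sugars, were called both ways. IMA2_6 had 18.4, 23.7 and 28 CPM in SpIB2, against 49.5, 51.5 and 55.5 CPM in SpIB1. This copy was lower in every SpIB2 library (log2 fold change -1.16 ± 0.26, adjusted p = 0.00451 by edgeR), and the scarcer IMA2_5 was lower as well (log2 fold change -1.15 ± 0.34, adjusted p = 0.0181 by edgeR), a call lost without SpIB2 replicate 1 or 2 or SpIB1 replicate 2 (adjusted p of 0.00165 to 0.626 over all alternatives). IMA5_1 averaged 12.9 ± 1.48 CPM in SpIB2 and 5.27 ± 2.77 CPM in SpIB1 (SD, n = 3 each) (log2 fold change 1.29 ± 0.39, adjusted p = 0.02 by edgeR), and its call was lost without SpIB1 replicate 1 or 3 (adjusted p of 0.0018 to 0.471 over all alternatives). IMA1_3 was also called higher, on 45 reads in SpIB2 and 11 in SpIB1, and lost the call without SpIB2 replicate 3 or SpIB1 replicate 1 or 3; its log2 fold change of 2.18 ± 0.61 (adjusted p = 0.0138 by edgeR) was 1.55 without SpIB2 replicate 3 and 3.02 without SpIB1 replicate 2 (adjusted p of 0.00167 to 0.122 over all alternatives). IMA1_1, IMA2_9 and IMA5_5 carried more reads and were not called (log2 fold changes 0.39 ± 0.33, -0.49 ± 0.29 and 0.22 ± 0.24). In all, 3 of 22 copies were higher and 2 lower, with a median of 0.0463. No copy was higher without SpIB1 replicate 1, and 1 was lower without SpIB2 replicate 1 or 2 or SpIB1 replicate 2.

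Of the 7 MAL regulator copies 4 were higher in SpIB2 and none lower, a count that was 2 without SpIB1 replicate 1 or 2. MAL33_2 had 30.5, 33 and 31.4 CPM in SpIB2, against 8.69, 8.75 and 7.79 CPM in SpIB1. MAL33_1 had 76.9, 79.6 and 84.8 CPM in SpIB2, against 27.9, 31.2 and 36.7 CPM in SpIB1. Every SpIB2 library of these activator copies exceeded every SpIB1 library (log2 fold changes 1.91 ± 0.23 and 1.33 ± 0.24, adjusted p = 2.55e-05 and 0.000853 by edgeR), and both stayed called in each fit that left out a library. MAL33_3 had 80.8, 57.8 and 92.3 CPM in SpIB2, against 37.6, 42.3 and 48.3 CPM in SpIB1. Its groups did not overlap, yet it missed the threshold (log2 fold change 0.85 ± 0.34, adjusted p = 0.0682 by edgeR). With the 3 copies summed, MAL33 averaged 193 ± 20.2 CPM in SpIB2 and 84.4 ± 9.19 CPM in SpIB1 (SD, n = 3 each) (log2 fold change 1.19 ± 0.28, adjusted p = 0.00746 by edgeR). MAL63 and MAL13, activators of the same family, were called with log2 fold changes of 0.90 ± 0.27 and 0.69 ± 0.25 (adjusted p = 0.0179 and 0.0427 by edgeR); the MAL63 call was lost without SpIB1 replicate 1 or 2 (adjusted p of 0.00506 to 1 over all alternatives), and the MAL13 call was lost in 5 of 6 such fits, all but the one without SpIB2 replicate 3 (adjusted p of 0.0037 to 1 over all alternatives). The copies of ZNF1, a regulator of respiration and maltose genes, were not called (log2 fold changes 0.42 ± 0.41 and 0.06 ± 0.38), and both turned without SpIB2 replicate 3, to -0.09 and -0.35.

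Hexose transporters, which carry glucose and fructose, were more often lower than higher in SpIB2: 12 of 37 copies were lower and 3 higher, with a median log2 fold change of -0.252. Without SpIB1 replicate 1 the higher copies numbered 1, and the median was -0.161, -0.546 and -0.601 without SpIB2 replicate 1, 2 or 3. HXT3_1 had 21.1, 11 and 13.4 CPM in SpIB2, against 86.1, 103 and 38.6 CPM in SpIB1. HXT5_2 had 5.41, 9.25 and 4.46 CPM in SpIB2, against 42.7, 25.8 and 38.8 CPM in SpIB1. HXT3 is a low-affinity carrier of glucose-rich phases and HXT5 a carrier of slow growth, and in both copies the strains did not overlap (log2 fold changes -2.33 ± 0.41 and -2.49 ± 0.59, adjusted p = 0.000879 and 0.00565 by edgeR). HXT9_3 was lower too (log2 fold change -1.71 ± 0.37, adjusted p = 0.00314 by edgeR). HXT6 had 319, 584 and 113 CPM in SpIB2, against 850.0, 758 and 1202 CPM in SpIB1. HXT6, a high-affinity carrier, was not called (log2 fold change -1.47 ± 0.64, adjusted p = 0.0886 by edgeR) except without SpIB2 replicate 2, where its log2 fold change was -2.12. HXT2_2 had 6.5, 8.73 and 559 CPM in SpIB2, against 42.4, 257 and 19.1 CPM in SpIB1. SpIB2 replicate 3 was far above its own replicates here, and SpIB1 replicate 2 above its own; without SpIB2 replicate 3 the log2 fold change of 0.85 ± 1.27 turned to -3.80 and passed the test, and without SpIB1 replicate 2 it was 2.64, not called (adjusted p of 0.013 to 1 over all alternatives).

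Among 43 copies of glucose sensing and repression genes 6 were higher and 5 lower, shares under the background. MTH1, a co-repressor of hexose transporter genes when glucose is low, was lower in SpIB2. MTH1_2 had 9.2, 16.6 and 32.5 CPM in SpIB2, against 76.6, 131 and 136 CPM in SpIB1. The strains did not overlap (log2 fold change -2.56 ± 0.48, adjusted p = 0.00127 by edgeR; -3.15 without SpIB2 replicate 3). The repressor NRG1_2 and the phosphatase subunit GLC7_1 were higher (log2 fold changes 1.80 ± 0.36 and 2.15 ± 0.43, adjusted p = 0.00188 and 0.00184 by edgeR). The second copy of the glucose sensor gene SNF3 had 16.6, 23.4 and 22 CPM in SpIB2, against 0 reads in SpIB1, which makes it at least 143-fold higher. The other SNF3 copy was called lower, and summed over both SNF3 averaged 46.8 ± 8.11 CPM in SpIB2 and 73.1 ± 10.1 CPM in SpIB1 (SD, n = 3 each) and was not called (log2 fold change -0.64 ± 0.33, adjusted p = 0.157 by edgeR). The 5 lower copies numbered 3 without SpIB2 replicate 1 or SpIB1 replicate 1, and 9 without the 2 SpIB2 libraries that stand apart. In the latter fit 2493 of 10689 copies over all were lower, a share near 9 of 43.

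In the main fit glycolytic genes were called higher more often than the background: 13 of 36 copies were higher and 1 lower, with a median log2 fold change of 0.622. Their summed level was 81530, 91260 and 54260 CPM in the SpIB2 libraries, against 32450, 39900 and 51180 CPM in the SpIB1 libraries. SpIB2 replicate 3 lay close to SpIB1 replicate 3, while the other SpIB2 libraries stood well above all SpIB1 libraries. The count of higher copies was 7 without SpIB2 replicate 1, 4 without SpIB1 replicate 1, 7 without SpIB1 replicate 2, and 20 without the 2 SpIB2 libraries that stand apart. Without SpIB1 replicate 1 the 4 of 36 copies did not exceed the share over all copies, 1257 of 10694. In fructose-bisphosphate aldolase and phosphoglycerate mutase the second copy was abundant in SpIB2 and far less so in SpIB1. FBA1_2 had 6154, 6754 and 4194 CPM in SpIB2, against 58.9, 72.1 and 114 CPM in SpIB1. GPM1_2 had 3349, 3038 and 1951 CPM in SpIB2, against 13.7, 15.3 and 20.8 CPM in SpIB1. In SpIB1 these 2 copies were read at a far lower level, and no library of one strain came near the other (log2 fold changes 6.12 ± 0.51 and 7.38 ± 0.54, adjusted p = 8.52e-07 and 3.32e-07 by edgeR). Their partners were abundant in both strains. FBA1_1 had a log2 fold change of 1.02 ± 0.38 and was not called (adjusted p = 0.0513 by edgeR) except without SpIB2 replicate 3, and GPM1_1 had one of 1.499 ± 0.45 (adjusted p = 0.0197 by edgeR), a call that was lost without SpIB2 replicate 1 or SpIB1 replicate 1 or 2 (adjusted p of 0.00101 to 0.32 over all alternatives). Summed over copies, FBA1 averaged 17179 ± 4043 CPM in SpIB2 and 5662 ± 992 CPM in SpIB1 (SD, n = 3 each) (log2 fold change 1.60 ± 0.37, adjusted p = 0.00733 by edgeR) and GPM1 averaged 10807 ± 2407 CPM in SpIB2 and 2827 ± 571 CPM in SpIB1 (SD, n = 3 each) (log2 fold change 1.93 ± 0.45, adjusted p = 0.00746 by edgeR), and both calls held in each fit that left out a library.

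Other glycolytic steps followed in part. HXK1_2 had 1348, 1972 and 1150.3 CPM in SpIB2, against 185, 353 and 529 CPM in SpIB1. The hexokinase HXK1, which is repressed by glucose, did not overlap between strains (log2 fold change 2.07 ± 0.53, adjusted p = 0.0088 by edgeR). The enolase copy ENO1_1 was higher too (log2 fold change 1.60 ± 0.41, adjusted p = 0.00894 by edgeR), a call lost without SpIB1 replicate 1 (adjusted p of 7.42e-05 to 0.2 over all alternatives), while the phosphoglycerate kinase PGK1 was not called (log2 fold change 0.68 ± 0.42, adjusted p = 0.219 by edgeR). The lower copy was PYK2_1, the minor pyruvate kinase used at low glycolytic flux. PYK2_1 had 6.5, 9.77 and 8.92 CPM in SpIB2, against 36.4, 31.1 and 41.2 CPM in SpIB1. All SpIB2 libraries were below all SpIB1 libraries (log2 fold change -2.10 ± 0.24, adjusted p = 1.66e-05 by edgeR). DOG2, a sugar phosphate phosphatase under glucose repression, was 13.1-fold higher in SpIB2 (log2 fold change 3.71 ± 0.44, adjusted p = 2.61e-05 by edgeR).

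Genes of ethanol and glycerol formation were called near the background, with 7 of 46 copies higher and 9 lower. The main pyruvate decarboxylase copy PDC1_1 averaged 3742 ± 704 CPM in SpIB2 and 4759.8 ± 572 CPM in SpIB1 (SD, n = 3 each) and was not called (log2 fold change -0.35 ± 0.34, adjusted p = 0.444 by edgeR). Aldehyde dehydrogenases of the same pair went apart. ALD3_1 had 6.68, 8.2 and 6.31 CPM in SpIB2, against 63.7, 77 and 98.5 CPM in SpIB1. ALD2_1 had 123, 173 and 60.6 CPM in SpIB2, against 25.3, 25.2 and 35.8 CPM in SpIB1. ALD3_1 was lower and ALD2_1 higher in every SpIB2 library (log2 fold changes -3.50 ± 0.29 and 2.05 ± 0.36, adjusted p = 9.36e-07 and 0.000739 by edgeR); the genes are close in sequence, so reads could be shared. The mitochondrial alcohol dehydrogenase copy ADH3_2 was higher (log2 fold change 1.76 ± 0.42, adjusted p = 0.00571 by edgeR). The 9 lower copies of the list numbered 2 without SpIB2 replicate 1, 4 without SpIB1 replicate 1 or 2, and 16 with both outlying SpIB2 libraries left out, and the 7 higher ones numbered 4 without SpIB1 replicate 1 or 2.

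Respiratory chain and ATP synthase genes were called higher in SpIB2 more often than lower (35 of 78 copies higher, 3 lower), with a median log2 fold change of 0.796. The summed level was 20800, 17880 and 26770 CPM in the SpIB2 libraries, against 13620, 14070 and 13950 CPM in the SpIB1 libraries. No SpIB2 library fell within the range of SpIB1. The 35 higher copies numbered 21 without SpIB1 replicate 1 or 2, and the 3 lower ones numbered 7 without SpIB2 replicate 3. ATP16_2 had 306, 154 and 119 CPM in SpIB2, against 39.8, 33.9 and 54.1 CPM in SpIB1. CYC7_1 had 1164, 797 and 2300.4 CPM in SpIB2, against 404, 416 and 333 CPM in SpIB1. The ATP synthase delta subunit and the low-oxygen form of cytochrome c were each higher in every SpIB2 library (log2 fold changes 2.18 ± 0.37 and 1.89 ± 0.44, adjusted p = 0.000649 and 0.00488 by edgeR). The low-oxygen cytochrome oxidase subunit copy COX5B_2 was 4.12-fold higher (log2 fold change 2.04 ± 0.41, adjusted p = 0.00209 by edgeR), or 1.43 on the log2 scale without SpIB2 replicate 1, its highest library. NDE2_1 had 9.38, 17.5 and 16.3 CPM in SpIB2, against 81.5, 70.8 and 118 CPM in SpIB1. This external NADH dehydrogenase was among the 3 lower copies (log2 fold change -2.64 ± 0.36, adjusted p = 0.000105 by edgeR).

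Of 56 copies of the TCA cycle 14 were higher and 4 lower, a count of higher copies that was 9 without SpIB2 replicate 2 and 8 without SpIB1 replicate 1. Of the 56 copies 3 had 0 reads in SpIB1. IDH2_2, a subunit of isocitrate dehydrogenase, was 3.36-fold higher (log2 fold change 1.75 ± 0.29, adjusted p = 0.000481 by edgeR). The second copies of SDH1 (succinate dehydrogenase) and MDH1 (mitochondrial malate dehydrogenase) had 169.8, 286 and 224 CPM and 166, 234 and 136 CPM in the SpIB2 libraries and 0 reads in SpIB1, which makes them at least 1563-fold and 1232-fold higher. Summed over copies neither SDH1 nor MDH1 was called (log2 fold changes 0.62 ± 0.45 and 0.48 ± 0.39, adjusted p = 0.313 and 0.375 by edgeR). The second copy of HAP4 was likewise unread in SpIB1; HAP4 is the activating subunit of the Hap complex that turns on respiratory genes. This copy had 198, 279.6 and 434 CPM in SpIB2 (at least 2098-fold higher), and summed over copies HAP4 missed the threshold (log2 fold change 1.26 ± 0.55, adjusted p = 0.0996 by edgeR). HAP5_1 had 7.4, 6.11 and 7.23 CPM in SpIB2, against 41.9, 35.3 and 33.7 CPM in SpIB1. HAP5, another subunit of that complex, was lower in all SpIB2 libraries in this copy (log2 fold change -2.41 ± 0.28, adjusted p = 2.41e-05 by edgeR).

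Genes of gluconeogenesis, the glyoxylate cycle and acetyl-carnitine transport, which serve growth on ethanol and acetate, were called lower in SpIB2 more often than higher (19 of 47 copies lower, 4 higher), with a median log2 fold change of -0.809. Their summed level did not follow, at 2555, 2217 and 3917 CPM in the SpIB2 libraries, against 2562, 2750 and 2570 CPM in the SpIB1 libraries. SpIB2 replicate 3 was the highest of the 6 libraries, and the strains overlapped. The lower count stayed between 13 and 18 in the fits that left out a library, and the higher one was 1 without SpIB1 replicate 1 and 2 without SpIB1 replicate 2 or 3. YAT1_2 had 5.05, 6.98 and 8 CPM in SpIB2, against 52.2, 48 and 49.5 CPM in SpIB1. CRC1_1 had 3.43, 7.33 and 13.4 CPM in SpIB2, against 54.7, 42 and 40.3 CPM in SpIB1. These copies of the carnitine acetyltransferase YAT1 and of the mitochondrial carnitine carrier CRC1 did not overlap between strains (log2 fold changes -2.89 ± 0.60 and -2.49 ± 0.38, adjusted p = 0.00251 and 0.000287 by edgeR), and CRC1_1 stood at -3.08 without SpIB2 replicate 3. YAT1_3 was lower as well (log2 fold change -2.22 ± 0.56, adjusted p = 0.00824 by edgeR). The acetyl-CoA synthetase copy ACS1_2 was called (log2 fold change -1.82 ± 0.63, adjusted p = 0.0384 by edgeR), but lost its call in 5 of the 6 fits that left out a library, all but the one without SpIB2 replicate 2 (adjusted p of 0.0035 to 0.286 over all alternatives).

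**Figure D3:**
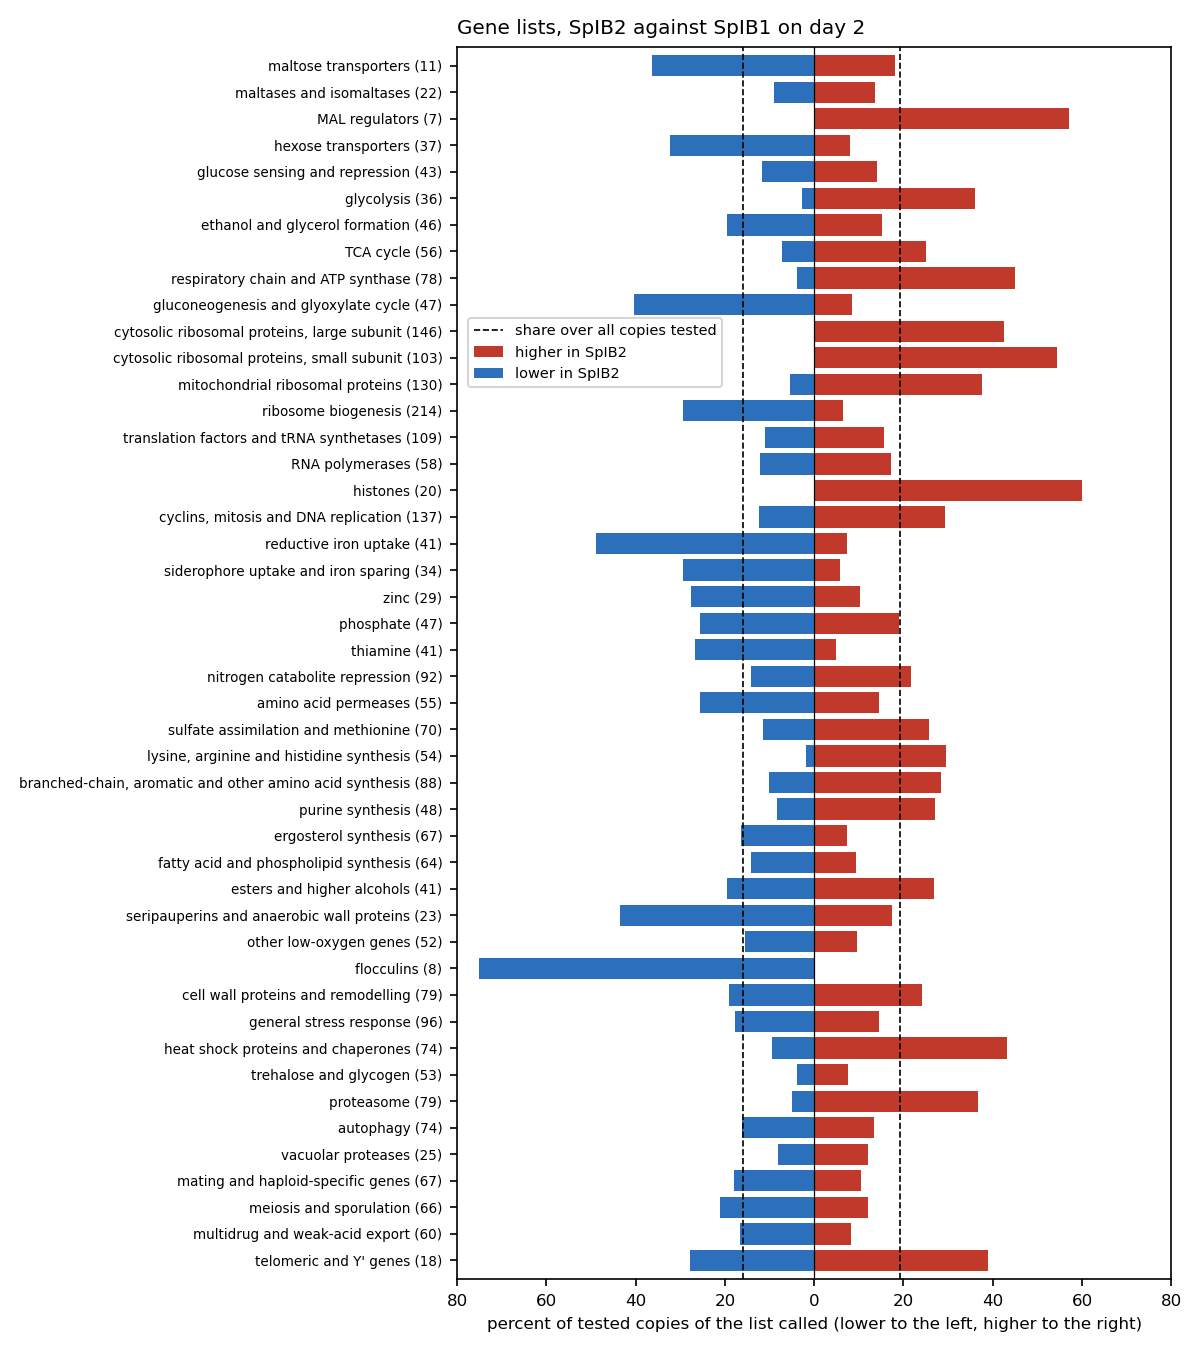
Percent of the tested copies of each of 46 gene lists that edgeR called higher (red, to the right) or lower (blue, to the left) in SpIB2 on day 2, with the number of tested copies in brackets. Dashed lines mark the shares over all tested copies, 19.3% higher and 16% lower; flocculins, reductive iron uptake, seripauperins and gluconeogenesis reach farthest on the lower side, and histones, MAL regulators, small-subunit ribosomal proteins and the respiratory chain on the higher side.

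Protein synthesis genes split between structure and assembly. Of the ribosomal proteins of the large subunit 62 of 146 copies were higher in SpIB2 and none lower, and of the small subunit 56 of 103 were higher and none lower (median log2 fold changes 0.864 and 1.2). The summed level of the large subunit was 40860, 26310 and 43910 CPM in the SpIB2 libraries, against 19570, 21450 and 19590 CPM in the SpIB1 libraries, and that of the small subunit was 34990, 19290 and 33360 CPM in the SpIB2 libraries, against 13490, 14980 and 14020 CPM in the SpIB1 libraries. SpIB2 replicate 2 was the lowest of its group in both and still above all SpIB1 libraries. The large subunit's 62 copies numbered 31 and 38 without SpIB1 replicate 1 or 3, and 38 when libraries were scaled by their totals alone; the small subunit's 56 numbered 35 without SpIB2 replicate 1, 27, 37 and 35 without SpIB1 replicate 1, 2 or 3, and 34 with library totals. A test against a 2-fold change called 13 of 146 large-subunit and 3 of 103 small-subunit copies higher. Over all copies that test called 474 of 10659 higher, so the small subunit did not exceed that share. RPS1A_2 had 777, 269 and 546 CPM in SpIB2, against 93, 109 and 109 CPM in SpIB1. RPL2A_3 had 593, 427 and 627 CPM in SpIB2, against 107, 111 and 113 CPM in SpIB1. In these copies all SpIB2 libraries exceeded all SpIB1 libraries (log2 fold changes 2.35 ± 0.48 and 2.32 ± 0.40, adjusted p = 0.00211 and 0.000766 by edgeR). They did so too in RPS20_2, RPS14A_3 and RPL29_2, with log2 fold changes of 2.08 ± 0.46, 2.16 ± 0.35 and 2.44 ± 0.38 (adjusted p = 0.00355, 0.000386 and 0.000329 by edgeR). RPL17B_3 had 214, 212 and 285 CPM in SpIB2, against 2.51, 3.21 and 2.97 CPM in SpIB1. This copy had few reads in every SpIB1 library (log2 fold change 6.34 ± 0.47, adjusted p = 4.21e-07 by edgeR), and the sum of the RPL17B copies was higher as well (log2 fold change 1.76 ± 0.33, adjusted p = 0.00225 by edgeR). Ribosomal protein genes come as paralogs of nearly the same sequence, so the split between copies is uncertain.

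Ribosome biogenesis genes, which process ribosomal RNA and assemble subunits in the nucleolus, went the other way, with 63 of 214 copies lower in SpIB2 and 14 higher (median -0.513). Their summed level was 6279, 5245 and 11060 CPM in the SpIB2 libraries, against 13560, 12660 and 9343 CPM in the SpIB1 libraries. SpIB2 replicate 3 lay between the SpIB1 libraries, and replicates 1 and 2 lay below them. The 63 lower copies numbered 99 without SpIB2 replicate 3, 124 without both SpIB2 libraries that stand apart, 38 without SpIB2 replicate 1 and 40 without SpIB1 replicate 1, and the 14 higher ones numbered 9 without SpIB1 replicate 3; the median was -0.899 without SpIB2 replicate 3. Of the 214 copies 5 had 0 reads in SpIB1, which bears on the count of 14 higher. NSR1 had 140.4, 101 and 304 CPM in SpIB2, against 999.3, 874 and 800.4 CPM in SpIB1. The nucleolin homolog NSR1 did not overlap between strains (log2 fold change -2.29 ± 0.48, adjusted p = 0.00248 by edgeR; -2.89 without SpIB2 replicate 3). The snoRNP methyltransferase copy NOP1_1 was lower too (log2 fold change -1.60 ± 0.43, adjusted p = 0.0109 by edgeR), a call lost without SpIB2 replicate 1 (adjusted p of 0.000486 to 0.213 over all alternatives).

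Mitochondrial ribosomal proteins were higher in SpIB2 in 49 of 130 copies and lower in 7 (median 0.613), with a summed level of 6706, 4825 and 4844 CPM in the SpIB2 libraries, against 3259, 3433 and 4091 CPM in the SpIB1 libraries. Each SpIB2 library was above each SpIB1 library. The count of higher copies was 32 without SpIB2 replicate 1 and 31 without SpIB1 replicate 1, and that of lower copies was 4 without any 1 of the SpIB1 libraries. Of the 130 copies 6 had 0 reads in SpIB1. MRPL51_1, a large-subunit protein, was among the higher (log2 fold change 1.03 ± 0.31, adjusted p = 0.0205 by edgeR), a call lost without SpIB2 replicate 1 or SpIB1 replicate 1 or 2 (adjusted p of 0.00208 to 0.818 over all alternatives), with 0.66 without SpIB2 replicate 1. The mitochondrial RNA polymerase copy RPO41_1 was 3.21-fold lower (log2 fold change -1.68 ± 0.31, adjusted p = 0.00121 by edgeR), while RPB10_2, a small subunit shared by the nuclear RNA polymerases, was 2.66-fold higher (log2 fold change 1.41 ± 0.28, adjusted p = 0.00209 by edgeR). GCN4, the activator of amino acid synthesis genes, was even across libraries. GCN4_1 had 873, 900.3 and 876 CPM in SpIB2, against 290.2, 307 and 279 CPM in SpIB1. It was higher in SpIB2 (log2 fold change 1.60 ± 0.32, adjusted p = 0.00206 by edgeR), as was the seryl-tRNA synthetase copy SES1_2 (log2 fold change 1.94 ± 0.37, adjusted p = 0.00134 by edgeR). HEF3_3 had 12.8, 19.9 and 11.1 CPM in SpIB2, against 129, 102 and 179 CPM in SpIB1. HEF3, a paralog of translation elongation factor 3, was lower in every SpIB2 library in this copy (log2 fold change -3.22 ± 0.37, adjusted p = 2.03e-05 by edgeR).

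**Figure D4:**
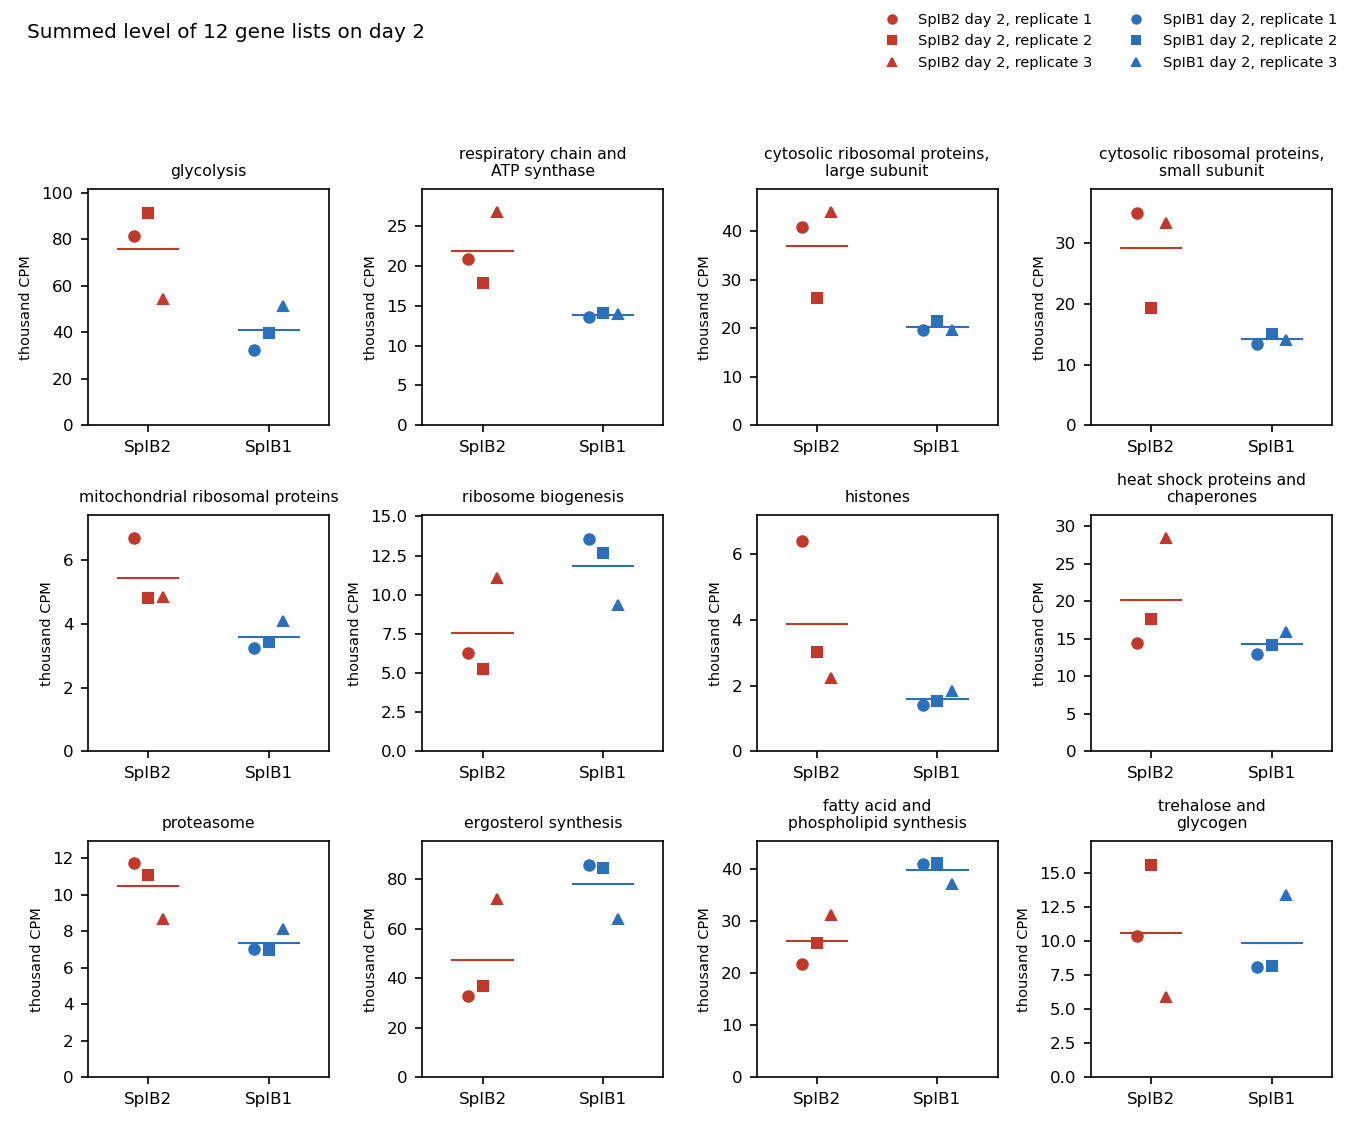
Summed CPM (axes in units of 1e3 CPM, starting at 0) of 12 gene lists in each day 2 library, SpIB2 (red) left of SpIB1 (blue), with a marker shape for each replicate number and a bar at the mean of 3 libraries. SpIB2 replicate 3 (triangle) lies nearer to SpIB1 than its replicates in ribosome biogenesis, ergosterol synthesis and glycolysis, and SpIB2 replicate 1 (circle) is the highest in histones.

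Histone genes, which are transcribed in S phase, were higher in SpIB2 in 12 of 20 copies and lower in none (median 1.2). Their summed level was 6397, 3030 and 2213 CPM in the SpIB2 libraries, against 1422, 1530 and 1848 CPM in the SpIB1 libraries. SpIB2 replicate 1 held far more than the other SpIB2 libraries, and the SpIB2 libraries were still all above those of SpIB1. Without SpIB2 replicate 1 or SpIB1 replicate 1 the higher copies numbered 6, and the median was 0.707 without SpIB2 replicate 1. HHT1_2 had 1214, 743 and 498 CPM in SpIB2, against 184, 183 and 277 CPM in SpIB1. HTA1_2 had 175, 40.3 and 44.2 CPM in SpIB2, against 5.31, 9.19 and 9.48 CPM in SpIB1. HHT1_2, a histone of the core tetramer, had a log2 fold change of 1.93 ± 0.39 and HTA1_2, of the outer dimers, one of 3.43 ± 0.54 (adjusted p = 0.00215 and 0.000369 by edgeR), and that of HTA1_2 was 2.40 without SpIB2 replicate 1. HTB2_2 and HTA2 had log2 fold changes of 3.40 ± 0.58 and 2.84 ± 0.60 (adjusted p = 0.000669 and 0.00276 by edgeR), or 2.34 and 1.69 without SpIB2 replicate 1.

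Among 137 copies of cyclin, mitosis and DNA replication genes, 40 were higher and 17 lower, which became 25 and 11 without SpIB1 replicate 1. Of the 137 copies 4 had 0 reads in SpIB1. The G1 cyclin copy CLN3_2 was not called (log2 fold change -0.38 ± 0.32, adjusted p = 0.382 by edgeR). The leading copies of the list were unread in SpIB1. ASH1_2, a daughter-cell repressor of mating-type switching, had 18.6, 22.9 and 19.8 CPM in SpIB2, DSE4_2, a daughter-specific glucanase, had 37.2, 42.1 and 21.1 CPM, and PIR1_2, a cell wall protein, had 115, 148 and 119 CPM. They were at least 141-fold, 231-fold and 881-fold higher. Summed over copies, ASH1 and DSE4 were not called (log2 fold changes 0.06 ± 0.23 and -0.27 ± 0.24, adjusted p = 0.87 and 0.418 by edgeR); of the other 2 DSE4 copies 1 was also unread in SpIB1 and 1 was called lower. Summed PIR1 was called higher (log2 fold change 0.92 ± 0.26, adjusted p = 0.0215 by edgeR), a call lost without SpIB2 replicate 2 and without any 1 of the SpIB1 libraries.

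Chaperone and proteasome copies were called higher more often than the background. Of 74 copies of heat shock proteins and chaperones, 32 were higher and 7 lower (median 0.797), with a summed level of 14400, 17560 and 28370 CPM in the SpIB2 libraries, against 12920, 14100 and 15900 CPM in the SpIB1 libraries. SpIB2 replicate 3 was the highest, and replicate 1 lay within the SpIB1 range. The higher copies numbered 20 without SpIB2 replicate 3 or without SpIB1 replicate 1, and the lower ones 4 without SpIB2 replicate 1; the median was 0.301 without SpIB2 replicate 3. BTN2_2 had 424, 318 and 1696 CPM in SpIB2, against 60.9, 158 and 37.2 CPM in SpIB1. FES1_2 had 36.5, 31.1 and 278 CPM in SpIB2, against 15, 13.7 and 9.06 CPM in SpIB1. BTN2, which gathers misfolded proteins, and FES1, a nucleotide exchange factor of a major chaperone, were higher in all SpIB2 libraries (log2 fold changes 3.25 ± 0.67 and 3.19 ± 0.71, adjusted p = 0.00242 and 0.0037 by edgeR). Without SpIB2 replicate 3, which was the highest in both, the log2 fold changes were 2.12 and 1.42, and without SpIB1 replicate 2 that of BTN2_2 was 4.05. Of 79 proteasome copies 29 were higher and 4 lower (median 0.613), or 17 higher without SpIB1 replicate 1, 2 lower without SpIB2 replicate 2 or 3, and 49 higher without the 2 SpIB2 libraries that stand apart. RPT2_2 had 398, 182 and 151 CPM in SpIB2, against 50.8, 51.2 and 57.8 CPM in SpIB1. This ATPase of the regulatory particle was higher (log2 fold change 2.19 ± 0.36, adjusted p = 0.000487 by edgeR), and the alternative proteasome activator BLM10_1 was lower (log2 fold change -2.17 ± 0.30, adjusted p = 0.000117 by edgeR), each without overlap.

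Reductive iron uptake had the largest share of lower copies after flocculins: 20 of 41 copies of the reductive iron uptake list were lower in SpIB2 and 3 higher (median -0.778). The summed level was 1225, 1365 and 1897 CPM in the SpIB2 libraries, against 7832, 7754 and 6738 CPM in the SpIB1 libraries, and no SpIB2 library came near an SpIB1 library. Yeast reduces iron at the cell surface with FRE reductases, then oxidises it with the copper enzyme FET3 and imports it through FTR1. FET3_1 had 13, 18.5 and 26.3 CPM in SpIB2, against 936, 881 and 458 CPM in SpIB1. FET3_2 had 11.4, 11 and 24.3 CPM in SpIB2, against 637, 710.4 and 259.6 CPM in SpIB1. FTR1_2 had 7.4, 5.24 and 20.6 CPM in SpIB2, against 802, 847 and 545 CPM in SpIB1. In each of these copies every SpIB2 library stood far below the lowest SpIB1 library, which was replicate 3. The log2 fold changes were -5.30 ± 0.57, -5.10 ± 0.54 and -6.04 ± 0.60 (adjusted p = 9.25e-06, 9.15e-06 and 4.71e-06 by edgeR). FTR1_1 was lower as well (log2 fold change -4.32 ± 0.64, adjusted p = 0.0002 by edgeR), and without SpIB2 replicate 3 the FTR1 copies stood at -5.58 and -6.85. Summed over copies, FET3 averaged 35.6 ± 14.4 CPM in SpIB2 and 1316 ± 512 CPM in SpIB1 (SD, n = 3 each) and FTR1 61.5 ± 59.4 CPM in SpIB2 and 1746 ± 391 CPM in SpIB1 (SD, n = 3 each).

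The reductase copy FRE4_1 and the low-affinity carrier FET4, which also takes up other metals and is under low-oxygen control, were lower too. FRE4_1 had 10.1, 15.5 and 22.3 CPM in SpIB2, against 140.4, 368 and 135 CPM in SpIB1. FET4 had 314, 326 and 181 CPM in SpIB2, against 1677, 1606 and 2642 CPM in SpIB1. The strains did not overlap in either (log2 fold changes -3.74 ± 0.50 and -2.85 ± 0.38, adjusted p = 8.58e-05 and 6.88e-05 by edgeR); without SpIB1 replicate 2 that of FRE4_1 was -3.10. In the list of siderophore uptake and iron sparing genes 10 of 34 copies were lower and 2 higher, 1 higher without SpIB1 replicate 3 (median -0.322). The siderophore carrier copy SIT1_2 and the mRNA-decay factor copy TIS11_1, which degrades mRNAs of iron-using proteins, had log2 fold changes of -2.82 ± 0.25 and -3.70 ± 0.39 (adjusted p = 1.31e-06 and 9.18e-06 by edgeR). HMX1_2 had 21.8, 27.2 and 279 CPM in SpIB2, against 234, 249.5 and 128 CPM in SpIB1. The heme oxygenase HMX1 was high in SpIB2 replicate 3 only, so the copy was not called (log2 fold change -0.90 ± 0.87, adjusted p = 0.445 by edgeR), but was called at -3.05 without that library. The copies of BIO5, a carrier of biotin precursors, were called in opposite directions. BIO5_2 averaged 4.76 ± 1.19 CPM in SpIB2 and 33.4 ± 1.4 CPM in SpIB1 (SD, n = 3 each) (log2 fold change -2.81 ± 0.25, adjusted p = 1.38e-06 by edgeR), and BIO5_1 had 10.1, 12.7 and 9.08 CPM in SpIB2 and no reads in SpIB1. Summed, BIO5 was lower (log2 fold change -1.11 ± 0.22, adjusted p = 0.00282 by edgeR).

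**Figure D5:**
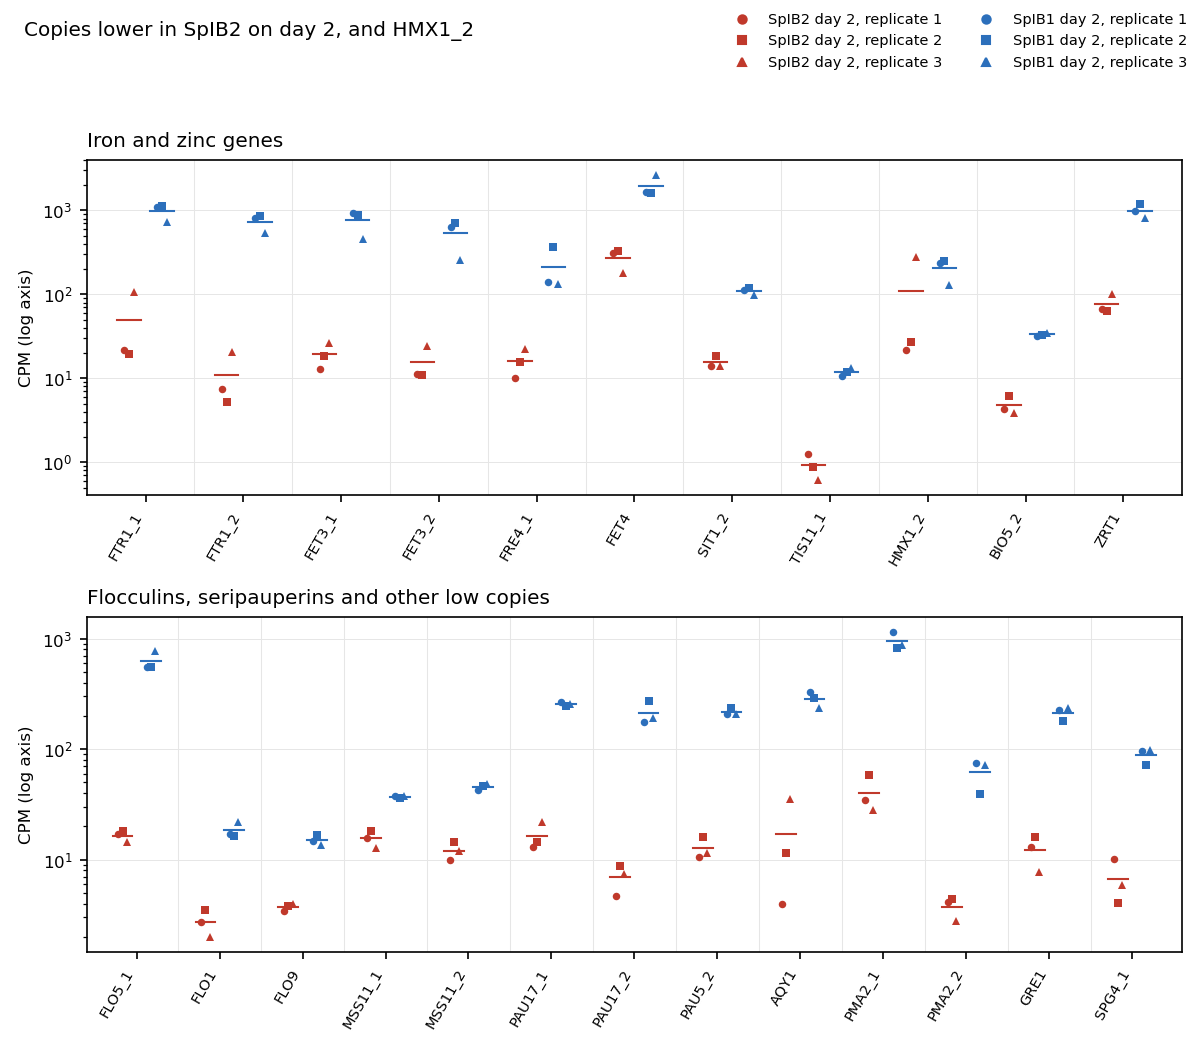
CPM on a log axis of iron and zinc genes (top) and of flocculins, seripauperins and other copies (bottom) in each day 2 library, SpIB2 (red) left of SpIB1 (blue), with a bar at the mean of 3 libraries. In every copy shown but HMX1_2 all SpIB2 libraries lie below all SpIB1 libraries; in HMX1_2 SpIB2 replicate 3 lies above them.

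Other nutrient lists were also lower more often than the background. Of 29 zinc copies 8 were lower and 3 higher, with a summed level of 5269, 4391 and 4258 CPM in the SpIB2 libraries, against 8346, 8333 and 7214 CPM in the SpIB1 libraries. ZRT1 had 67.1, 63.9 and 102 CPM in SpIB2, against 984, 1179 and 808 CPM in SpIB1. ZRT1, the high-affinity zinc importer, did not overlap (log2 fold change -3.67 ± 0.47, adjusted p = 5.06e-05 by edgeR). IZH1_1, a membrane protein of zinc homeostasis, was lower in each SpIB2 library and was not called (log2 fold change -1.36 ± 0.69, adjusted p = 0.139 by edgeR), and ZRT3_2, a vacuolar zinc exporter copy, had 48.5, 60.6 and 36.3 CPM in SpIB2 and no reads in SpIB1. The other ZRT3 copy was called lower, and the sum was not called (log2 fold change -0.26 ± 0.25, adjusted p = 0.459 by edgeR). Of 47 phosphate copies 12 were lower and 9 higher, of which the 9 were 5 without SpIB2 replicate 1 and 3 without SpIB1 replicate 1 or 3. The high-affinity phosphate carrier copy PHO84_1, its activator copy PHO4_1 and the acid phosphatase copy PHO11_1 were lower, with log2 fold changes of -1.84 ± 0.27, -2.21 ± 0.33 and -1.92 ± 0.28 (adjusted p = 0.000215, 0.00022 and 0.000169 by edgeR). The thiamine-repressed phosphatase copy PHO3_1 was higher (log2 fold change 2.08 ± 0.34, adjusted p = 0.000441 by edgeR). Of 41 thiamine copies 11 were lower and 2 higher, 6 higher without SpIB2 replicate 3. THI7_1 had 114, 149.6 and 208 CPM in SpIB2, against 656, 528 and 465 CPM in SpIB1. THI7, the thiamine importer, was lower in all SpIB2 libraries (log2 fold change -1.80 ± 0.34, adjusted p = 0.00127 by edgeR), as was the scarce thiazole synthase copy THI4_1, whose log2 fold change of -2.15 ± 0.47 (adjusted p = 0.00356 by edgeR) was -3.21 without SpIB2 replicate 2.

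Genes under nitrogen catabolite repression were called near the background. Of 92 copies 20 were higher and 13 lower (median -0.00877). The 20 were 12 without SpIB1 replicate 1, and the 13 were 8 without SpIB2 replicate 1 and 6 and 7 without SpIB1 replicate 1 or 2. Leaving out both outlying SpIB2 libraries gave 24 lower of 92, close to 2493 of 10689 over all copies in that fit. DAL3_2 had 97.3, 44.2 and 52 CPM in SpIB2, against 4.13, 5.84 and 8.92 CPM in SpIB1. GLN1_2 had 1991, 2097 and 1952 CPM in SpIB2, against 497, 671 and 475 CPM in SpIB1. DAL3, which acts in allantoin breakdown, and GLN1, glutamine synthetase, were higher in all SpIB2 libraries in these copies (log2 fold changes 3.35 ± 0.38 and 1.88 ± 0.34, adjusted p = 1.48e-05 and 0.00108 by edgeR). UGA4_2, a copy of the GABA permease, had 164, 195 and 510.0 CPM in SpIB2 and no reads in SpIB1 (at least 1998-fold higher). Summed over copies UGA4 was called higher (log2 fold change 1.18 ± 0.37, adjusted p = 0.0301 by edgeR), a call lost without SpIB2 replicate 3 and without any 1 of the SpIB1 libraries (log2 fold changes of 0.56 to 1.46 with 1 library left out). Of 55 amino acid permease copies 14 were lower and 8 higher, 5 higher without SpIB1 replicate 1. Of the 55 copies 4 had 0 reads in SpIB1, which bears on the count of 8. AGP1 had 141, 86.9 and 54.3 CPM in SpIB2, against 1134, 1245 and 502 CPM in SpIB1. AGP1, a broad amino acid permease, was lower without overlap (log2 fold change -3.35 ± 0.66, adjusted p = 0.00178 by edgeR), and so was the lysine permease copy LYP1_2 (log2 fold change -2.02 ± 0.31, adjusted p = 0.0003 by edgeR). MUP1_1, a methionine permease copy, was lower with SpIB2 replicate 3 inside the SpIB1 range (log2 fold change -2.24 ± 0.60, adjusted p = 0.0109 by edgeR; -3.50 without SpIB2 replicate 3). DIP5 had 1167, 794 and 1568 CPM in SpIB2, against 352, 462 and 206 CPM in SpIB1. The glutamate and aspartate permease DIP5 was higher instead (log2 fold change 1.79 ± 0.43, adjusted p = 0.00615 by edgeR).

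In the main fit amino acid and nucleotide synthesis lists were higher more often than the background. Without SpIB1 replicate 1 the sulfate list (8 of 70) and the branched-chain list (12 of 88) lay near the share over all copies, 1257 of 10694. Without SpIB1 replicate 3 the purine list (7 of 48) lay near 1524 of 10691. Of 54 copies of lysine, arginine and histidine synthesis 16 were higher and 1 lower (no lower copy without SpIB2 replicate 1 or SpIB1 replicate 1 or 2, and 3 without SpIB2 replicate 3); LYS20_2, a homocitrate synthase copy, averaged 64.4 ± 13.7 CPM in SpIB2 and 12.6 ± 2.97 CPM in SpIB1 (SD, n = 3 each) (log2 fold change 2.36 ± 0.43, adjusted p = 0.00116 by edgeR). Of 88 copies of branched-chain, aromatic and other amino acid synthesis 25 were higher and 9 lower. The 25 numbered 14 without SpIB2 replicate 1 and 12, 16 and 14 without SpIB1 replicate 1, 2 or 3, and the 9 numbered 5 without SpIB1 replicate 1. Within it the threonine aldolase copy GLY1_2 was lower (log2 fold change -2.03 ± 0.37, adjusted p = 0.00117 by edgeR). Of 70 copies of sulfate assimilation and methionine genes 18 were higher and 8 lower. The 18 numbered 10 without SpIB2 replicate 1 and 8 and 11 without SpIB1 replicate 1 or 3, and the 8 numbered 5 without SpIB1 replicate 1 or 2. MET14_1, adenylylsulfate kinase, was among the higher (log2 fold change 2.34 ± 0.44, adjusted p = 0.00132 by edgeR). Of 48 purine copies 13 were higher and 4 lower, with 7 to 8 higher without any 1 of the SpIB1 libraries, 1 lower without SpIB2 replicate 1 and 2 lower without SpIB2 replicate 2 or SpIB1 replicate 1 or 2. MTD1_1 had 104, 77.5 and 54 CPM in SpIB2, against 13.6, 25.2 and 15.1 CPM in SpIB1. ADE13_2 had 145, 94.1 and 70.2 CPM in SpIB2, against 19.2, 30.1 and 26.2 CPM in SpIB1. These copies of a folate dehydrogenase and of adenylosuccinate lyase did not overlap between strains (log2 fold changes 2.13 ± 0.31 and 2.03 ± 0.31, adjusted p = 0.000194 and 0.00025 by edgeR).

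Sterol synthesis genes had a lower summed level in 2 of the 3 SpIB2 libraries and not in the other. The summed level of 67 ergosterol copies was 32790, 37080 and 72180 CPM in the SpIB2 libraries, against 85790, 84450 and 63950 CPM in the SpIB1 libraries, so SpIB2 replicate 3 lay within the SpIB1 range. Of the 67 copies 11 were lower and 5 higher (median -0.514, or -0.33 and -0.824 without SpIB2 replicate 1 or 3). The lower share, 16.4%, was near the 16% over all tested copies. The 11 numbered 32 without the 2 SpIB2 libraries that stand apart, 3 without SpIB2 replicate 1 and 4, 4 and 5 without SpIB1 replicate 1, 2 or 3, and the 5 numbered 2 without any 1 of the SpIB1 libraries. ERG1_1 had 1065, 1171 and 3776 CPM in SpIB2, against 6024, 6266 and 4463 CPM in SpIB1. For this copy of squalene epoxidase the call (log2 fold change -1.48 ± 0.54, adjusted p = 0.0446 by edgeR) was lost in 5 of the 6 fits that left out a library, and without SpIB2 replicate 3 it held at -2.32 (adjusted p of 0.000361 to 0.421 over all alternatives). ERG11_1, lanosterol demethylase, was not called (log2 fold change -0.69 ± 0.63, adjusted p = 0.418 by edgeR), nor without SpIB2 replicate 3, where it was -1.35.

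The copies of MVD1, mevalonate pyrophosphate decarboxylase, and of ARE2, which esterifies sterols, went opposite ways. MVD1_2 had 252, 378 and 1055 CPM in SpIB2, against 3304, 2850.2 and 2163 CPM in SpIB1. This copy was lower in every SpIB2 library (log2 fold change -2.30 ± 0.52, adjusted p = 0.00405 by edgeR; -3.14 without SpIB2 replicate 3), whereas MVD1_1 had 513, 704 and 1369.7 CPM in SpIB2 and no reads in SpIB1 (at least 5952-fold higher). Summed, MVD1 averaged 1456 ± 908 CPM in SpIB2 and 2819 ± 592 CPM in SpIB1 (SD, n = 3 each) and was not called (adjusted p = 0.113 by edgeR), although it was without SpIB2 replicate 3. ARE2_2 had a log2 fold change of -2.47 ± 0.66 (adjusted p = 0.0112 by edgeR), lost without SpIB2 replicate 1 (adjusted p of 0.000186 to 0.0853 over all alternatives). ARE2_1 had 729, 1003 and 1208 CPM in SpIB2 and 1 read over the 3 SpIB1 libraries, and no fold is given for it. Summed, ARE2 averaged 2029.6 ± 629.9 CPM in SpIB2 and 5657 ± 1224 CPM in SpIB1 (SD, n = 3 each) (adjusted p = 0.072 by edgeR).

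Fatty acid and phospholipid genes were lower in summed level in every SpIB2 library, at 21700, 25820 and 31100 CPM in the SpIB2 libraries, against 40880, 40980 and 37090 CPM in the SpIB1 libraries. Of 64 copies 9 were lower and 6 higher. The lower share, 14.1%, lay under the 16% over all tested copies. The 9 numbered 3 and 5 without SpIB2 replicate 1 or 2 and 4, 4 and 5 without SpIB1 replicate 1, 2 or 3. Without the 2 SpIB2 libraries that stand apart 17 were lower, near the share over all copies in that fit, 2493 of 10689. ACC1_2 had 451, 432 and 466 CPM in SpIB2, against 1917, 2057 and 1636 CPM in SpIB1. This copy of acetyl-CoA carboxylase, the first step of fatty acid synthesis, had even libraries in each strain (log2 fold change -2.06 ± 0.45, adjusted p = 0.00361 by edgeR). The desaturase copy OLE1_2, whose enzyme needs oxygen, averaged 3258 ± 645 CPM in SpIB2 and 8918 ± 337 CPM in SpIB1 (SD, n = 3 each) without overlap (log2 fold change -1.45 ± 0.51, adjusted p = 0.0387 by edgeR), but lost its call in each of the 6 fits that left out a library (adjusted p of 0.00225 to 0.418 over all alternatives). INO1_1, inositol phosphate synthase, was lower (log2 fold change -2.18 ± 0.48, adjusted p = 0.00349 by edgeR). FAS1_1, a fatty acid synthase subunit copy, was not called (log2 fold change -1.18 ± 0.63, adjusted p = 0.157 by edgeR), while FAS1_2 had 661, 959 and 1593 CPM in SpIB2 and 16 reads over the SpIB1 libraries (log2 fold change 10.40 ± 0.97, adjusted p = 2.61e-06 by edgeR; 10.99 without SpIB1 replicate 2). Summed, FAS1 averaged 2953 ± 1544 CPM in SpIB2 and 4204 ± 1008 CPM in SpIB1 (SD, n = 3 each) (adjusted p = 0.537 by edgeR).

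Seripauperins (PAU genes) and the TIR and DAN wall mannoproteins are induced when oxygen runs low. Of 23 tested copies 10 were lower in SpIB2 and 4 higher (median -0.654), with 9 or 10 lower and 4 higher when 1 library was left out; the median was -0.366 without SpIB1 replicate 2. PAU17_1 had 13, 14.3 and 22 CPM in SpIB2, against 265, 246 and 254 CPM in SpIB1. PAU17_2 had 4.69, 8.73 and 7.38 CPM in SpIB2, against 175, 275 and 191 CPM in SpIB1. PAU5_2 had 10.5, 16.1 and 11.5 CPM in SpIB2, against 209, 234 and 209.7 CPM in SpIB1. All SpIB1 libraries exceeded all SpIB2 libraries by a wide gap (log2 fold changes -3.95 ± 0.38, -4.94 ± 0.41 and -4.10 ± 0.42, adjusted p = 3.67e-06, 8.72e-07 and 6.73e-06 by edgeR). PAU genes are a large family of near-identical sequence, so the copy that a read belongs to is uncertain. TIR1_1 was not called (log2 fold change 0.72 ± 0.50, adjusted p = 0.278 by edgeR), and the summed level of the list, which TIR1_1 leads, overlapped between strains (10920, 13530 and 6866 CPM in the SpIB2 libraries, against 9090, 8593 and 11250 CPM in the SpIB1 libraries). The mitochondrial ADP/ATP carrier copies AAC1_1 and AAC3_2 went apart. AAC1_1 averaged 10.2 ± 0.375 CPM in SpIB2 and 58.3 ± 5.72 CPM in SpIB1 (SD, n = 3 each) (log2 fold change -2.52 ± 0.26, adjusted p = 5.47e-06 by edgeR). AAC3_2, a copy of the anaerobic form, averaged 19.7 ± 7.48 CPM in SpIB2 and 3.1 ± 0.777 CPM in SpIB1 (SD, n = 3 each) (log2 fold change 2.66 ± 0.44, adjusted p = 0.000485 by edgeR). Of the 52 copies of the other low-oxygen list 8 were lower and 5 higher. The 8 numbered 3 and 4 without SpIB2 replicate 1 or 3 and 2, 3 and 3 without SpIB1 replicate 1, 2 or 3, and the 5 numbered 3 without SpIB2 replicate 2 or SpIB1 replicate 1 or 2.

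Flocculins are the lectins that let yeast cells clump and settle at the end of fermentation. Of 8 tested copies of flocculin genes and their regulators 6 were lower in SpIB2 and none higher (1 higher without SpIB2 replicate 3), with 5 lower in all 6 fits that left out a library. Summed, they stood at 81.03, 95.82 and 67.69 CPM in the SpIB2 libraries, against 703.5, 691.9 and 927.8 CPM in the SpIB1 libraries. FLO5_1 had 17, 18.2 and 14.3 CPM in SpIB2, against 556, 549 and 777 CPM in SpIB1. FLO1 had 2.71, 3.49 and 2 CPM in SpIB2, against 17.1, 16.3 and 22.1 CPM in SpIB1. FLO9 had 3.43, 3.84 and 4 CPM in SpIB2, against 14.9, 16.8 and 13.4 CPM in SpIB1. In each the lowest SpIB1 library lay several-fold above the highest SpIB2 library (log2 fold changes -5.25 ± 0.41, -2.76 ± 0.33 and -1.99 ± 0.28, adjusted p = 5.67e-07, 3.2e-05 and 0.000144 by edgeR). FLO1, FLO5 and FLO9 share long repeats, so reads may be exchanged among them. Both copies of MSS11, a transcription factor that activates flocculin genes, were lower in all SpIB2 libraries. Copy 1 averaged 15.5 ± 2.69 CPM in SpIB2 and 37.2 ± 0.786 CPM in SpIB1 (SD, n = 3 each) and copy 2 averaged 12.1 ± 2.19 CPM in SpIB2 and 45.6 ± 3.15 CPM in SpIB1 (SD, n = 3 each) (log2 fold changes -1.26 ± 0.23 and -1.91 ± 0.30, adjusted p = 0.00092 and 0.000293 by edgeR).

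Cell wall genes were called near the background (19 of 79 copies higher, 15 lower, with 7 lower without SpIB2 replicate 1). Of the 79 copies 4 had 0 reads in SpIB1. CWP2, a major mannoprotein listed with 1 copy, had 713, 609 and 1266 CPM in SpIB2 and 4 reads over the SpIB1 libraries (log2 fold change 11.99 ± 0.71, adjusted p = 1.09e-07 by edgeR). PIR3_1 was lower (log2 fold change -1.47 ± 0.48, adjusted p = 0.0298 by edgeR), a call lost without SpIB2 replicate 1 or 3 or SpIB1 replicate 1 or 3 (adjusted p of 0.00717 to 0.377 over all alternatives) and at -2.10 without SpIB2 replicate 2, while PIR3_2 had 791, 1429 and 497 CPM in SpIB2 and no reads in SpIB1 (at least 6251-fold higher). Summed, PIR3 averaged 1916 ± 1138 CPM in SpIB2 and 2739 ± 841 CPM in SpIB1 (SD, n = 3 each) and was not called (adjusted p = 0.394 by edgeR). Among 96 general stress copies 17 were lower and 14 higher; the 14 numbered 9 without SpIB2 replicate 1 and 7 without SpIB1 replicate 1 or 2. GRE1 had 13, 16.1 and 7.69 CPM in SpIB2, against 228, 178 and 236 CPM in SpIB1. SPG4_1 had 10.1, 4.01 and 5.85 CPM in SpIB2, against 97, 71.3 and 99 CPM in SpIB1. GRE1, a hydrophilin of the stress response, and SPG4, a protein needed for survival in stationary phase, were lower in all SpIB2 libraries (log2 fold changes -4.13 ± 0.32 and -3.74 ± 0.43, adjusted p = 5.21e-07 and 1.86e-05 by edgeR).

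Other membrane proteins that were lower in SpIB2 included PMA2, the minor isoform of the plasma membrane proton pump, and AQY1, a water channel. PMA2_1 had 34.3, 58.1 and 28.3 CPM in SpIB2, against 1155, 832 and 869 CPM in SpIB1. PMA2_2 had 4.15, 4.36 and 2.77 CPM in SpIB2, against 75, 39 and 72.1 CPM in SpIB1. AQY1 had 3.97, 11.5 and 35.7 CPM in SpIB2, against 327, 288 and 235 CPM in SpIB1. The strains did not overlap in any of them (log2 fold changes -4.56 ± 0.41, -4.04 ± 0.33 and -4.05 ± 0.62, adjusted p = 1.58e-06, 8.52e-07 and 0.00028 by edgeR), and AQY1 stood at -5.19 without SpIB2 replicate 3. BNA2_2, a copy of the first enzyme of NAD synthesis from tryptophan, was lower (log2 fold change -3.74 ± 0.44, adjusted p = 2.64e-05 by edgeR; -4.38 without SpIB2 replicate 2). VMA1_2 had 637, 841 and 596 CPM in SpIB2, against 1.47, 1.6 and 2.26 CPM in SpIB1. DEF1_2 had 125, 126 and 119.7 CPM in SpIB2, against 1.03, 1.6 and 1.13 CPM in SpIB1. VMA1, a subunit of the vacuolar proton pump, and DEF1, which acts in the degradation of stalled RNA polymerase, had few SpIB1 reads in these copies (37 reads and 26 reads over the 3 libraries) (log2 fold changes 8.58 ± 0.41 and 6.60 ± 0.50, adjusted p = 4.76e-08 and 4.65e-07 by edgeR). Summed over their copies neither VMA1 nor DEF1 was called (log2 fold changes 0.66 ± 0.29 and -0.19 ± 0.33, adjusted p = 0.102 and 0.684 by edgeR).

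The remaining 10 lists are given as ranges. In autophagy, vacuolar proteases, mating, meiosis, multidrug export, trehalose and glycogen, translation factors, RNA polymerases, esters and higher alcohols, and telomeric genes, 7.55% to 38.9% of tested copies were higher and 3.77% to 27.8% were lower, and leaving out some 1 library moved 13 of these 20 counts by more than 1.5 times. The multidrug pump copy PDR5_1 was higher in SpIB2 (log2 fold change 2.17 ± 0.33, adjusted p = 0.000263 by edgeR) and the exporter copy AQR1_2 lower (log2 fold change -2.44 ± 0.59, adjusted p = 0.00604 by edgeR). Of the mating genes the pheromone methyltransferase copy STE14_2 was higher (log2 fold change 1.93 ± 0.30, adjusted p = 0.000333 by edgeR), and the agglutinin-like FIG2 and the scaffold copy STE5_1 were lower (log2 fold changes -1.80 ± 0.29 and -1.64 ± 0.35, adjusted p = 0.00038 and 0.00269 by edgeR). UME6_1, a copy of the regulator of early meiotic genes, was lower (log2 fold change -1.69 ± 0.32, adjusted p = 0.00137 by edgeR).

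A set of gene copies was read in SpIB2 and not in SpIB1. On day 2, 293 copies (181 with a symbol) had reads in SpIB2 and 0 in all 3 SpIB1 libraries, and 190 of them reached 10 CPM or more in SpIB2; 216 had no read in SpIB1 on day 5 either. In the other direction 99 copies (5 with a symbol) were read in SpIB1 alone, and none of them reached more than 1.21 CPM. APE1_2 had 954, 1409 and 747 CPM in SpIB2, against 0 reads in all 3 libraries of SpIB1. APE1 is a vacuolar aminopeptidase, and this copy was at least 7153-fold higher; summed over copies APE1 averaged 1502 ± 548 CPM in SpIB2 and 610.1 ± 254 CPM in SpIB1 (SD, n = 3 each) (log2 fold change 1.30 ± 0.40, adjusted p = 0.0287 by edgeR), a call lost without SpIB2 replicate 1 or 2 or SpIB1 replicate 1 or 2. The second copies of MCR1, a mitochondrial cytochrome b5 reductase, and of the aminopeptidase APE2 were at least 2614-fold and 2226-fold higher, with 318, 318 and 500.0 CPM and 334, 403 and 230.1 CPM in SpIB2. Summed over copies neither MCR1 nor APE2 was called (log2 fold changes 0.86 ± 0.35 and 0.85 ± 0.34, adjusted p = 0.0814 and 0.0797 by edgeR). What a count of 0 stands for in these copies was not tested.

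For 148 of these unread copies, at 10 CPM or more in SpIB2, the symbol's other copy could be tested. That copy was lower in SpIB2 in 52 cases (35.1%), higher in 6 and not called in 90, with a median log2 fold change of -0.458, against 15.3% lower, 19.5% higher and a median of 0.0496 over all copies of 2-copy symbols. Summed over both copies, 38 of the 148 symbols were higher in SpIB2, 13 were lower and 97 were not called, with a median of 0.463. These symbols were chosen for a copy read in SpIB2 alone, so their sums lean towards SpIB2 by that choice. Over all summed symbols 13.8% were higher and 12.2% lower. Of the 167 symbols whose copies were called in opposite directions, 11 were higher and 22 lower after summing, and 134 were not called. These 167 include symbols with a copy unread in SpIB1. RCF2, an assembly factor of the respiratory supercomplex, is one of them: RCF2_1 had 186, 235 and 442 CPM in SpIB2 and no reads in SpIB1, RCF2_2 averaged 145 ± 48.9 CPM in SpIB2 and 740.0 ± 77.8 CPM in SpIB1 (SD, n = 3 each) (log2 fold change -2.35 ± 0.48, adjusted p = 0.00227 by edgeR), and the sum was not called (log2 fold change -0.77 ± 0.42, adjusted p = 0.186 by edgeR).

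The day 5 libraries of the same strains gave a separate strain comparison, which shares no library with that of day 2. Of the 2055 copies higher in SpIB2 on day 2, 1172 were also higher on day 5, 76 were lower and 807 were not called. Of the 1707 lower copies, 1034 were also lower on day 5, 127 were higher and 546 were not called. The share of all copies called on day 5 is not given here, so these counts do not show agreement beyond that share. The difference between the strain effects was tested directly with the interaction term, and 2819 of 10659 copies (26.4%, either direction) passed, among them 512 of the higher and 445 of the lower copies of day 2. FET3, FTR1, FLO5, MAL33_1 and MAL33_2 and MAL11_2 did not pass this test, whereas GRE1, SPG4_1, the PAU17 copies, HEF3_3 and HXT5_2 did, with values given in the closing section.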

How the data were processed

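RNA-seq libraries of SpIB2 and SpIB1 on fermentation days 2 and 5 (3 a group) were deposited by the authors as raw read counts per gene copy, 1 table per library. The submitters' processing notes list STAR 2.7.3a, Trimmomatic 0.38, edgeR 3.34.0 and HTSeq 0.11.1 without roles. How multi-mapping reads and strand were treated, and the genome build, is not given in the sources used here. Of 11312 copies, 35 held a count that was no number (19 day 2 cells) and were left out.

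Counts were tested with edgeR 4.0.16 (R 4.3.3): expression filter, TMM, robust quasi-likelihood fit of all 12 libraries with 1 coefficient a group (8 residual degrees of freedom), and Benjamini-Hochberg adjustment over 10659 copies. SE came from the F statistic. A fold against 0 reads was set against 3 reads over the group. Counts summed by symbol were fitted likewise. Alternatives were RLE factors, library totals, no filter, a minimum mean count of 50, DESeq2 1.42.0 with a local trend, limma voom 3.58.1, day 2 libraries alone, a replicate block, a 2-fold test, each library left out, 2 SpIB2 libraries left out together, and the only 3-digit string missing from the tables (790) put back. The fit was tested on simulated data. No sequence or coordinate was used.

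Named copies are the largest non-overlapping changes with at least 10 CPM in the higher strain, leading or most abundant members of 46 gene lists, the most abundant copies unread in 1 strain, the strongest opposite pairs, all maltose, maltase and MAL regulator lists' copies, and the most abundant copies; only part is printed. The comparison, lists and rule were chosen with earlier results of these data known.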

Additional observations from a re-analysis of the deposited data

Results flagged for a closer look

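For 56 of the 167 copies named above the strain effect on day 5 differed from that on day 2 by the interaction test. Of all tested copies 26.4% passed it (edgeR quasi-likelihood test, Benjamini-Hochberg adjusted p under 0.05). Many of the named copies were picked for a large change on day 2, and the difference subtracts that same day 2 value. A difference back towards 0 is therefore favoured by the choice, and the count of 56 is not a result about the named copies as a set. Values below are log2 fold changes of SpIB2 against SpIB1, first that of day 2 and then that of day 5, followed by the day 5 minus day 2 difference. No library is shared between the days.

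Among the maltose copies, MAL11_1 had -1.57 on day 2 and -0.29 on day 5 (difference 1.28), MAL31_4 had 0.01 on day 2 and 1.47 on day 5 (difference 1.46), MAL12_1 had 0.53 on day 2 and -1.30 on day 5 (difference -1.83) and MAL12_2 had 0.76 on day 2 and -0.97 on day 5 (difference -1.73). MAL32_1 had 1.43 on day 2 and -0.77 on day 5 (difference -2.20), MAL32_2 had -0.32 on day 2 and -2.14 on day 5 (difference -1.82), MAL62 had -0.24 on day 2 and -1.91 on day 5 (difference -1.66) and IMA2_6 had -1.16 on day 2 and 0.99 on day 5 (difference 2.15). IMA2_9 had -0.49 on day 2 and 1.33 on day 5 (difference 1.82), MAL33_3 had 0.85 on day 2 and 2.37 on day 5 (difference 1.53), MAL63 had 0.90 on day 2 and 2.65 on day 5 (difference 1.75) and ZNF1_1 had 0.42 on day 2 and 2.22 on day 5 (difference 1.80). ZNF1_2 had 0.06 on day 2 and 2.00 on day 5 (difference 1.93). The edgeR adjusted p-values of these differences ran from 0.00236 to 0.0379.

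For hexose uptake and glycolysis, HXT5_2 had -2.49 on day 2 and 4.48 on day 5 (difference 6.97), HXT6 had -1.47 on day 2 and 2.89 on day 5 (difference 4.36), GPM1_2 had 7.38 on day 2 and 5.37 on day 5 (difference -2.02) and FBA1_1 had 1.02 on day 2 and -0.86 on day 5 (difference -1.89). FBA1_2 had 6.12 on day 2 and 4.42 on day 5 (difference -1.70), PGK1 had 0.68 on day 2 and -1.01 on day 5 (difference -1.68) and DOG2 had 3.71 on day 2 and 1.84 on day 5 (difference -1.88). The edgeR adjusted p-values of these differences ran from 0.00034 to 0.0485.

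Among copies for ethanol, acetate and respiration, ALD3_1 had -3.50 on day 2 and -0.10 on day 5 (difference 3.39), ADH3_2 had 1.76 on day 2 and 0.07 on day 5 (difference -1.68), ACS1_2 had -1.82 on day 2 and 2.41 on day 5 (difference 4.23) and NDE2_1 had -2.64 on day 2 and 0.13 on day 5 (difference 2.78). CRC1_1 had -2.49 on day 2 and 0.44 on day 5 (difference 2.93), YAT1_2 had -2.89 on day 2 and 0.61 on day 5 (difference 3.50), YAT1_3 had -2.22 on day 2 and 1.04 on day 5 (difference 3.26) and RCF2_2 had -2.35 on day 2 and 0.27 on day 5 (difference 2.62). AAC1_1 had -2.52 on day 2 and -0.49 on day 5 (difference 2.02) and AAC3_2 had 2.66 on day 2 and 0.67 on day 5 (difference -1.99). The edgeR adjusted p-values of these differences ran from 0.000224 to 0.0457.

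In protein synthesis and histones, RPL2A_3 had 2.32 on day 2 and 0.17 on day 5 (difference -2.15), RPL17B_3 had 6.34 on day 2 and 4.50 on day 5 (difference -1.84), RPS1A_2 had 2.35 on day 2 and -0.32 on day 5 (difference -2.67) and RPS20_2 had 2.08 on day 2 and -0.28 on day 5 (difference -2.36). SES1_2 had 1.94 on day 2 and -0.06 on day 5 (difference -2.00), HEF3_3 had -3.22 on day 2 and 1.64 on day 5 (difference 4.86), RPO41_1 had -1.68 on day 2 and -0.22 on day 5 (difference 1.46) and HTB2_2 had 3.40 on day 2 and 0.999 on day 5 (difference -2.40). HTA2 had 2.84 on day 2 and 0.38 on day 5 (difference -2.45). The edgeR adjusted p-values of these differences ran from 0.000171 to 0.0377.

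For zinc, nitrogen and lipids, IZH1_1 had -1.36 on day 2 and 2.07 on day 5 (difference 3.43), DAL3_2 had 3.35 on day 2 and 0.85 on day 5 (difference -2.50), GLN1_2 had 1.88 on day 2 and -0.90 on day 5 (difference -2.78) and DIP5 had 1.79 on day 2 and -2.41 on day 5 (difference -4.20). OLE1_2 had -1.45 on day 2 and 0.79 on day 5 (difference 2.25) and INO1_1 had -2.18 on day 2 and -0.24 on day 5 (difference 1.95). The edgeR adjusted p-values of these differences ran from 0.000968 to 0.0416.

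For the wall, low oxygen, stress and membrane, PAU17_1 had -3.95 on day 2 and 0.09 on day 5 (difference 4.04), PAU17_2 had -4.94 on day 2 and 0.26 on day 5 (difference 5.20), PAU5_2 had -4.10 on day 2 and -0.18 on day 5 (difference 3.92) and TIR1_1 had 0.72 on day 2 and 3.66 on day 5 (difference 2.94). MSS11_1 had -1.26 on day 2 and -0.04 on day 5 (difference 1.22), PIR3_1 had -1.47 on day 2 and 0.57 on day 5 (difference 2.04), GRE1 had -4.13 on day 2 and 0.11 on day 5 (difference 4.24) and SPG4_1 had -3.74 on day 2 and 3.31 on day 5 (difference 7.05). PMA2_1 had -4.56 on day 2 and -2.91 on day 5 (difference 1.65), PMA2_2 had -4.04 on day 2 and -0.78 on day 5 (difference 3.26) and AQY1 had -4.05 on day 2 and -0.68 on day 5 (difference 3.37). The edgeR adjusted p-values of these differences ran from 6.6e-05 to 0.04.

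The copies ACS1_2, HEF3_3, HXT5_2, IMA2_6 and SPG4_1 were called lower in SpIB2 on day 2 and higher on day 5, and DIP5 and GLN1_2 were called higher on day 2 and lower on day 5. SpIB2 day 5 replicate 1 stands apart from its replicates, and its part in these differences was not tested.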

How the results depend on the processing

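Of the 141 called copies named here, 99 kept their call and direction under every alternative and 123 in all 6 fits that left out a library. Leaving out 1 library gave 1257 to 2145 copies higher in SpIB2 against 2055, 1077 to 1726 lower against 1707, 217 to 685 symbols higher against 647 and 284 to 624 lower against 571. A test against a 2-fold change called 474 copies higher and 283 lower, since it asks for more than a difference from 0. Library totals without TMM gave 349 higher symbols; the cause was not tested. Without the 2 SpIB2 libraries that stand apart, 1135 symbols were higher and 1041 lower; the cause was not tested. Other totals of copies, with DESeq2, limma voom, RLE factors, other filters, the 6 day 2 libraries alone or the absent string put back, lay within 1.5 times.

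Replicate numbers did not pair the libraries: deviations of same-numbered libraries correlated at -0.202, -0.31 and -0.543, and no library correlated best with its own number. A fit with the replicate block gave 417 symbols higher, and turned HXT2_2 to -0.15.

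The direction turned in 4 uncalled copies (log2). Leaving out 1 library, ZNF1_1 ran from -0.0857 to 0.69, ZNF1_2 from -0.35 to 0.36, HXT2_2 from -3.80 to 2.64 and MAL31_4 from -0.0602 to 0.12. Without the 2 SpIB2 libraries that stand apart they were -0.0795, -0.35, -3.80 and -0.0302. With limma voom ZNF1_2 was -0.0379 and HXT2_2 -0.90, and with library totals MAL31_4 was -0.0292.

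The analysis is limited by 3 libraries a strain, of which those of SpIB2 vary more, by unknown replicate origin, and by the unknown handling of reads that match several copies. Copies near 3 reads a library carry little information.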

Other observations

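Gene copies read in SpIB2 and not in SpIB1 were counted by copy number and by locus tag. Of the 181 unread copies with a symbol, 144 are numbered 2, 25 are numbered 1 and 12 carry another number or none. The shares of these numbers over all tested copies are not given here, so the counts do not show that unread copies differ from the rest. Among copies with only a locus tag, 39 had 0 reads in SpIB1 and at least 50 reads in SpIB2 on day 2, from 58 to 20745 reads. All 39 fell into 3 runs of tag numbers, split wherever the next tag was more than 40 away. A tag copy just under the cut of 50, with 48 reads in SpIB2 and 0 in SpIB1, lay outside the 3 runs.

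The run from tag 4554 to tag 4605 held 11 unread copies among 15 tested copies with a tag only, and tag 4599 in this range had 222 SpIB1 reads. The run from 6499 to 6527 held 7 of 7, and the run from 8865 to 9019 held 21 of 23, with no copy above 3 SpIB1 reads in either range. These runs were found after the values were seen and no test was made. Whether tag numbers follow position in the genome is not given in the sources used here.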
